A study of Mus musculus with 6 samples.

Results

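Mef2c encodes one of the MEF2 transcription factors, and the genes described here are its relatives and partners. Of 10 genes, picked by name for their known ties to MEF2, the table holds Mef2b and Mef2d, the class IIa histone deacetylase genes Hdac4, Hdac5, Hdac7 and Hdac9, the kinase genes Mapk7 and Mapk14, and the target gene Nr4a1. Each of these 9 genes had 1 probe set among the 23913 in the table, and Mef2a was not analysed here. According to the methods, probe sets poorly detected in most replicates were left out, so further probe sets of these genes may not be among those shown. The table names 17372 genes in all. The question was whether Mef2 relatives were higher where Mef2c had been deleted, and whether partners, upstream kinases and a target of MEF2 differed.

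RNA came from bone marrow pre-B cells sorted for B220 without surface IgM or CD43. Mef2c-deficient mice were Vav-Cre Mef2c fl/fl, in which Cre acts throughout blood cells, and control mice are labelled only as control. According to the methods, controls carried either floxed Mef2c without Cre, on both copies or on 1 (fl/fl or fl/+), or Vav-Cre with 1 floxed copy, so a control array may come from a mouse with 1 deleted copy. All mice were 9 months old, each group held 3 Affymetrix arrays, and the samples are described as independent without naming animals, so the p-values measure the spread between these samples.

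MEF2 proteins bind DNA through a shared MADS box and can form dimers with each other. Class IIa histone deacetylases have little enzyme activity of their own. They bind MEF2 in the nucleus, recruit the NCoR and SMRT corepressors and keep MEF2 targets low until kinases of the CaMK, PKD and SIK families phosphorylate them, after which 14-3-3 proteins hold them in the cytoplasm. ERK5, the product of Mapk7, and p38-alpha, the product of Mapk14, phosphorylate MEF2 directly. In lymphocytes Nr4a1, which encodes the orphan nuclear receptor NUR77, is a classic MEF2 target induced by antigen receptor signals.

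Promoter sequence was searched for letters resembling MEF2 sites, and every window with a match is shown. These belonged to Hdac5 and Hdac9. All 10 genes had RefSeq windows of the 250 bases before an annotated start (GRCm38.p6, 16 windows). The motifs were TAAAAATA, and a loose form of CTA and TAG with any 4 bases between them, on both strands, and they can overlap. The first occurs in 2.45% and the second in 3.2% of 32851 such windows of all genes, and either in 5.48%. Of the 16 windows of the genes described here, 2 held either motif, and whether this differs from all windows was not tested. Both motifs occurred in 1 window of Hdac5 (chr11:102230173-102230422, minus strand) and in the window of 1 of the 2 starts of Hdac9 (chr12:34528890-34529139, minus strand). Capitals mark the matches.
Hdac5: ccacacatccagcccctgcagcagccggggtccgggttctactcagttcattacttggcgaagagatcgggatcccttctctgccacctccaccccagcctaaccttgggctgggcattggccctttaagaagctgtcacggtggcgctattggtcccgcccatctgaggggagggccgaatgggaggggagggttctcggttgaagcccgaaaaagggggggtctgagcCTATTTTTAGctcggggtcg
Hdac9: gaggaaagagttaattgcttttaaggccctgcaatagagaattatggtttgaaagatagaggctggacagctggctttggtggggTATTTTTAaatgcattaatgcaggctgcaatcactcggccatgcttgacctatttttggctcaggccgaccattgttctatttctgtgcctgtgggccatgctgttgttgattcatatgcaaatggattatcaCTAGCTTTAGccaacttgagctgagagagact
In Hdac5 both matches lie on the same bases, 20 to 11 before the start. In Hdac9 TATTTTTA, which reads TAAAAATA on the other strand, lies 165 to 158 bases before the start and CTAGCTTTAG 32 to 23 before it. The 4 central bases of the latter are GCTT, unlike the run of A and T in the first motif, so it matches only the loose form. A match is a stretch of letters and not a measured binding site. None of the windows of Mef2b, Mef2d, Mef2a, Hdac4, Hdac7, Mapk7, Mapk14 or Nr4a1 held either motif, and the array does not show which Hdac9 start was used.

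Values are log2 of the deposited intensities. Whether the authors left the log scale with powers of 2 or of e is not stated. The highest deposited value has a natural log of 14.58 and a log2 of 21.03, and 2865 values (2%) exceed 65535, the highest count of such a scanner. Powers of e would place every array value within that range and powers of 2 would not. On a base of e all log2 differences printed here shrink to 0.693 times their size and no p moves, so each fold is given on both bases. Over 23888 probe sets, 3 passed a limma adjusted p of 0.05 (0.0126%), Tnnt2, Slc1a5 and Rapgef3, all lower in Mef2c-deficient cells and named after their values were seen. With the replicate number as a block, 1 passed. An unadjusted p under 0.05 was found for 20.7% of probe sets, 2906 lower (12.2%) and 2042 higher (8.55%), so that 58.7% of these were lower. This share was 81.3% after median centring and 79.7% with the 40th percentile filter on low values. It fell to 56.3% after quantile normalization, 54.1% after cyclic loess, 53.6% with array weights and 53% with the methods' t-test. Of the 9 genes, 0 passed the adjusted threshold, while 2, Hdac5 and Hdac9, had lower means with an unadjusted p under 0.05. At that p the same 2 were at least 2-fold lower in the deposited values, as were 8.26% of all probe sets, and 0 were at least 2-fold higher, as were 3.48% of all. In 2 of the 9, Hdac9 and Mef2b, the groups did not overlap, against 31.3% of all probe sets.

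Bright probe sets tended to be lower and dim ones higher. The median log2 difference was 0.16 over all probe sets, 0.36 in the dimmest of 10 equal bins of level and -0.45 in the brightest, and each gene is therefore also set beside its own bin. Of 12 probe sets of pre-B and B lineage markers, Cd79b and Cd24a were the brightest over all arrays, at mean log2 values of 18.76 and 18.49 in Mef2c-deficient cells and 18.99 and 18.97 in controls. Plasmacytoid dendritic cell and neutrophil markers stood highest in Mef2c-deficient replicate 3 and mature B cell markers in Mef2c-deficient replicate 2. In such bulk samples fewer cells of a type and less RNA per cell cannot be told apart.

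The 2 measured Mef2 relatives had differences of opposite sign, and neither passed the test. Mef2b, a relative best known from germinal centre B cells, had log2 values of 9.40, 9.69 and 9.84 in Mef2c-deficient arrays, against 8.71, 9.01 and 9.30 in control arrays. Every Mef2c-deficient array lay above every control array, but the gap between the closest arrays was only 0.10. Groups did not overlap in this direction in 16.3% of all probe sets. On the log2 scale the mean was 0.63 higher (SE 0.28, 95% interval -0.02 to 1.29, limma adjusted p = 0.251), 1.55-fold as deposited or 1.36-fold with e as the base. Between arrays of the same replicate number it was 0.68, 0.68 and 0.54. Probe sets of a similar level had a median difference of -0.12. The unadjusted p was 0.0569 on the deposited scale and 0.0262 after quantile normalization, with adjusted p of 0.128 to 0.508 over the 16 alternatives. The annotated gene Gm45929 overlaps Mef2b, and which of these transcripts the probe set measures was not examined.

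Mef2d, which other work has placed beside Mef2c in B-cell progenitors, was among the brighter probe sets, at the 96th percentile of the table. Its log2 values were 14.95, 14.44 and 13.74 in Mef2c-deficient arrays and 14.90, 14.77 and 15.28 in control arrays, so that the groups overlapped. Mef2c-deficient replicate 1 was as high as the controls, and replicate 3 was the lowest array. Its mean log2 difference was -0.61 (SE 0.36, 95% interval -1.45 to 0.24, limma adjusted p = 0.337), close to the median of -0.45 in its level bin. Without Mef2c-deficient replicate 3 the difference was -0.29, and without replicate 1 it was -0.89 with an unadjusted p of 0.0374 (adjusted p = 0.253).

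**Figure D1:**
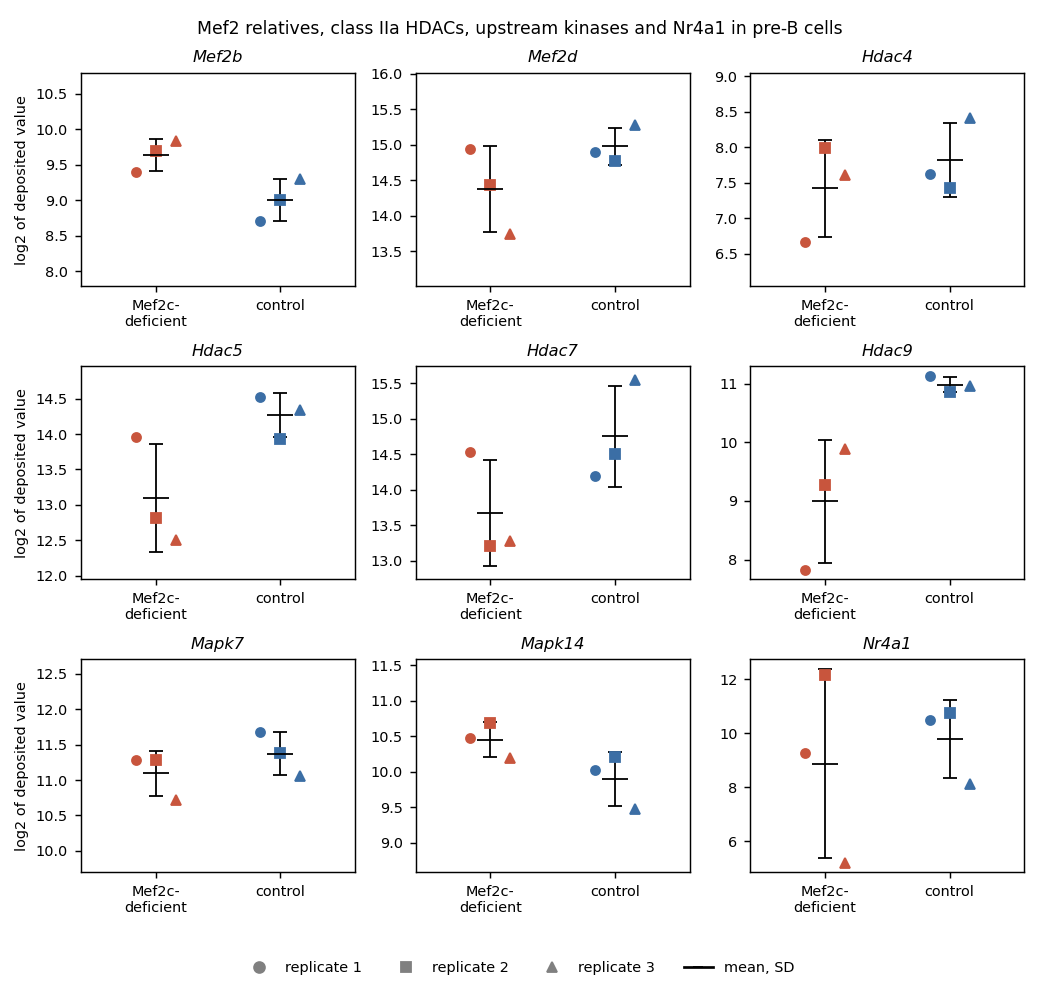
Level on the log2 scale (vertical axis) of each of the 9 measured genes in 3 Mef2c-deficient (left, red) and 3 control arrays (right, blue), each group with its mean and SD in black and a symbol for each replicate number. Hdac9 lay below all controls and Mef2b above them in all Mef2c-deficient arrays, Nr4a1 ranged from 5.20 to 12.17 within the Mef2c-deficient group, and vertical scales differ between panels.

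In Mef2c-deficient pre-B cells the means of all 4 class IIa histone deacetylase genes were below those of controls, and Hdac9 differed most. Hdac9, which also gives rise to a short MEF2-binding repressor without the deacetylase domain, had log2 values of 7.83, 9.27 and 9.88 in Mef2c-deficient arrays, against 11.13, 10.86 and 10.96 in control arrays. The groups were separated by 0.98, while the 3 controls lay within 0.27 of each other and the Mef2c-deficient arrays spread over 2.05. In 15% of all probe sets the groups did not overlap in this direction. Mean levels were 8.99 ± 1.05 in Mef2c-deficient and 10.98 ± 0.14 in control cells (SD, n = 3 each). This is a log2 difference of -1.99 (SE 0.51, 95% interval -3.17 to -0.81) and a 3.97-fold lower mean, which would be 2.60-fold were the base e. The limma unadjusted p was 0.00489 and the adjusted p 0.15. Its level bin had a median difference of -0.12. Hdac9 therefore did not pass over all probe sets, although its unadjusted p stayed under 0.05 in all 16 alternatives (0.000535 to 0.0314). The base of e is 1 of these and cannot change a p. With array weights the adjusted p was 0.044, within a range of 0.044 to 0.43. Whether the probe set measures full-length Hdac9, the short form or both was not examined.

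Hdac5, a partner of MEF2 studied mostly in muscle, had log2 values of 13.95, 12.82 and 12.51 in Mef2c-deficient arrays and 14.53, 13.93 and 14.34 in control arrays. Mef2c-deficient replicate 1 overlapped control replicate 2 by 0.03, and the other Mef2c-deficient arrays lay well below all controls. For Hdac5 the log2 difference was -1.17 (SE 0.42, 95% interval -2.14 to -0.19), with a limma unadjusted p of 0.025 and an adjusted p of 0.203, beside -0.45 in its level bin. Its mean was 2.25-fold lower as deposited and would be 1.75-fold lower on a base of e, short of 2-fold. The unadjusted p was over 0.05 without Mef2c-deficient replicate 2 (0.0744) or 3 (0.0674), without control replicate 1 (0.0837) or 3 (0.0648), after quantile normalization (0.12) and cyclic loess (0.179), and with the methods' t-test (0.0692). In all, 9 of 16 alternatives kept it under 0.05, among them the base of e, which cannot change a p.

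Hdac7, the class IIa member with known roles in thymocytes and B-cell progenitors, had log2 values of 14.53, 13.21 and 13.27 in Mef2c-deficient arrays and 14.20, 14.51 and 15.55 in control arrays. Mef2c-deficient replicate 1 exceeded control replicates 1 and 2, and control replicate 3 stood above all other arrays. The difference of the log2 means was -1.08 (SE 0.49, limma adjusted p = 0.255). Slc48a1 overlaps an end of the Hdac7 gene, and from which of them the probe set takes its signal was not examined. Without control replicate 3 the difference was -0.69, and without Mef2c-deficient replicate 1 it was -1.51, with an unadjusted p under 0.05. Hdac4 was the dimmest of the 4, at the 44.6th percentile of the table. Its log2 values of 6.66, 7.99 and 7.61 in Mef2c-deficient arrays lay across the 7.63, 7.43 and 8.42 of the control arrays. Here the log2 difference was -0.40 (SE 0.43, limma adjusted p = 0.555), in a level bin whose median was 0.33. It was -0.02 without Mef2c-deficient replicate 1 and -0.11 without control replicate 3.

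Among the 4 class IIa genes, 2 had an unadjusted p under 0.05 and 0 an adjusted p under 0.05, with a median log2 difference of -1.13. For comparison, the 7 other histone deacetylase genes, which encode active enzymes of other classes, all had lower means as well, with a median of -1.01. Of these, 3 had an unadjusted p under 0.05, and in 4 the groups did not overlap. Of all probe sets, 12.2% were lower at that p and 15% were lower without overlap. In the 3 brightest level bins these shares were 22.4% to 31% and 29.9% to 37.4%. Without Mef2c-deficient replicate 3, the lowest array in Hdac6, Hdac8, Hdac10 and Hdac11, the median of the 7 was -0.54, while that of the class IIa genes was -0.88. Hdac11, the only class IV gene, had log2 values of 8.77, 8.32 and 5.79 in Mef2c-deficient arrays, against 10.81, 9.60 and 10.58 in control arrays (difference -2.70, SE 0.77, limma adjusted p = 0.166). Hdac3, whose product is the catalytic partner of class IIa proteins in the NCoR complex, had 10.94, 11.70 and 11.80 in Mef2c-deficient arrays and 12.42, 12.34 and 12.77 in control arrays (difference -1.03, SE 0.32, limma adjusted p = 0.181). Lower means were thus found in all 11 measured genes of the family, where 42.4% of all probe sets and 70.6% to 79% of those in the 3 brightest of the 10 bins had lower means. Not all 11 were that bright, and in the bins of Hdac4 and Hdac9 28.2% and 53.3% had lower means. The median of the 11 was -1.03 as deposited, -0.71 after quantile normalization, -0.57 after cyclic loess and -1.20 after median centring, with all 11 below 0 each time. An unadjusted p under 0.05 was found for 5 of them as deposited. This number was 2 after quantile normalization, 2 after cyclic loess and 7 after median centring. Whether class IIa genes differed from the other deacetylase genes was not tested.

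**Figure D2:**
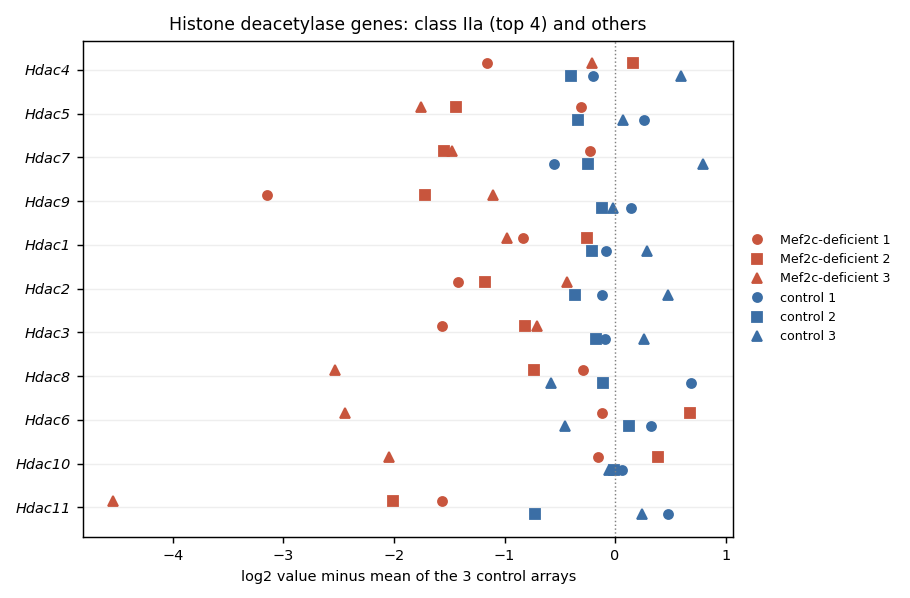
Distance of each array from the control mean on the log2 scale (horizontal axis) for 11 histone deacetylase genes, class IIa genes in the top 4 rows, in Mef2c-deficient (red, upper) and control arrays (blue, lower). Hdac1, Hdac2, Hdac3, Hdac9 and Hdac11 show no overlap between the groups, and Mef2c-deficient replicate 3 lies far below the other arrays in Hdac6, Hdac8, Hdac10 and Hdac11.

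Neither of the 2 upstream kinases passed the test. Mapk14 had log2 values of 10.47, 10.68 and 10.19 in Mef2c-deficient arrays and 10.02, 10.21 and 9.47 in control arrays. The groups overlapped by 0.02, and the differences between arrays of the same number were 0.45, 0.47 and 0.72. Its log2 difference was 0.55 (SE 0.30, limma adjusted p = 0.312), while the median of its level bin was -0.52. After quantile normalization it was 0.80 with an unadjusted p of 0.0278, and after cyclic loess 0.86 with 0.0242, at adjusted p of 0.299 and 0.281. Mapk7 had log2 values of 11.28, 11.28 and 10.72 in Mef2c-deficient arrays and 11.67, 11.37 and 11.06 in control arrays. Its log2 difference of -0.28 (SE 0.30, limma adjusted p = 0.556) became 0.15 after quantile normalization and 0.20 after cyclic loess, so its direction depended on the scaling. Without Mef2c-deficient replicate 3 it was -0.09.

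**Figure D3:**
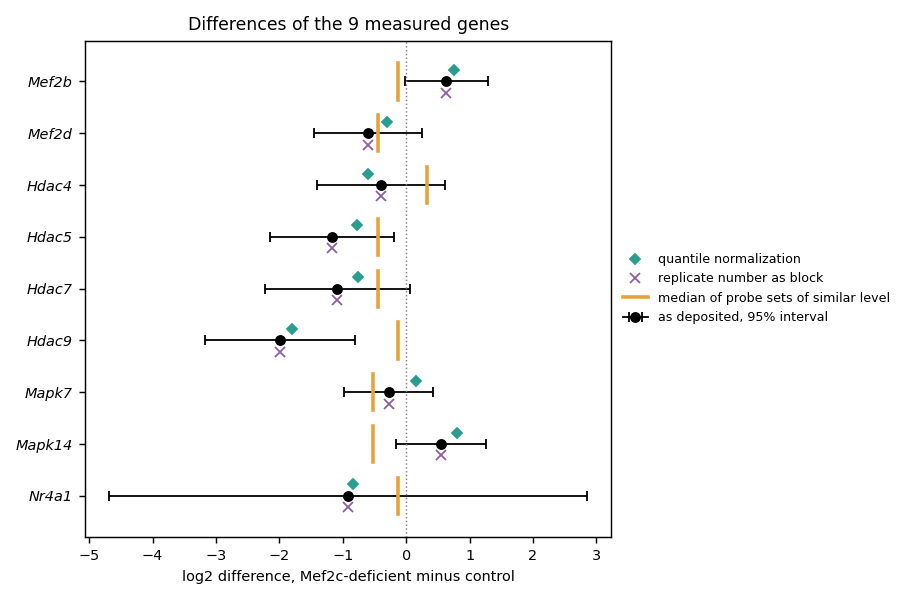
Log2 difference, Mef2c-deficient minus control (horizontal axis), of the 9 measured genes with the limma 95% interval (black), beside the difference after quantile normalization (green), with the replicate number as a block (purple) and the median of all probe sets of a similar level (orange). The intervals of Hdac5 and Hdac9 lie below 0, Mef2b and Mapk14 lie above the median of their level, and Mapk7 changes sign after quantile normalization.

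Nr4a1 varied more between arrays than between genotypes. Its log2 values were 9.27, 12.17 and 5.20 in Mef2c-deficient arrays and 10.50, 10.76 and 8.12 in control arrays. The highest and the lowest value of all arrays both belonged to the Mef2c-deficient group, which spanned 6.97 against 2.64 in the controls, and the array numbered 3 was the lowest of each group. The means differed by -0.91 on the log2 scale (SE 1.62, limma adjusted p = 0.713), with a 95% interval of -4.68 to 2.86. Arrays of the same number differed by -1.23, 1.41 and -2.92, and without Mef2c-deficient replicate 3 the mean difference was 0.93.

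Of 7 further genes reported as targets of MEF2 or ERK5, 6 had lower means (median log2 difference -0.70). This direction rested on Mef2c-deficient replicate 3, without which the median was 0.33, and the median was -0.24 without control replicate 1 and -0.31 after cyclic loess. An unadjusted p under 0.05 was found for 1 of these, Bcl2l1, and for 1 with a higher mean, Nr4a2, and 0 passed the adjusted threshold. At that p 12.2% of all probe sets were lower and 8.55% higher. The array numbered 3 was also the lowest of each group in the immediate early genes Egr1 and Jun and in the zinc finger genes Klf2 and Klf4, all 4 named after their values were seen. Klf4 had 13.74, 14.46 and 6.19 in Mef2c-deficient arrays and 14.88, 14.08 and 8.37 in control arrays. Jun had 15.56, 15.51 and 13.02 in Mef2c-deficient arrays and 16.28, 15.96 and 12.56 in control arrays. Both relatives of Nr4a1 lacked that pattern. Nr4a2 had 10.17, 9.89 and 9.94 in Mef2c-deficient arrays, above the 9.45, 8.56 and 9.40 of the control arrays (difference 0.87, SE 0.32, limma adjusted p = 0.21). In 16.3% of all probe sets the groups lay apart in this direction. Nr4a3 differed by -0.70 (SE 0.40, limma adjusted p = 0.323), with 5.79, 7.16 and 6.94 in Mef2c-deficient arrays and a lowest value of 7.16 in control arrays. The survival gene Bcl2l1 had 13.57, 12.09 and 11.72 in Mef2c-deficient arrays and 14.06, 13.29 and 13.73 in control arrays (difference -1.23, SE 0.50, limma adjusted p = 0.229).

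**Figure D4:**
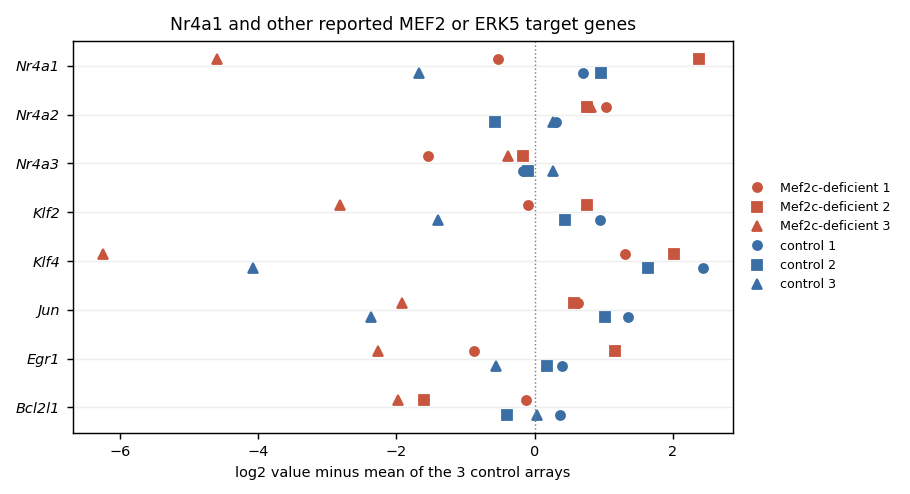
Distance of each array from the control mean on the log2 scale (horizontal axis) for Nr4a1 and 7 other reported MEF2 or ERK5 target genes in Mef2c-deficient (red, upper) and control arrays (blue, lower). Triangles, the arrays numbered 3, lie lowest of each group in Nr4a1, Klf2, Klf4, Jun and Egr1 but not in Nr4a2.

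Counts for known partners of these genes are set beside the whole table, where 42.4% of probe sets had lower means. At an unadjusted p under 0.05, 12.2% were lower and 8.55% higher. Groups lay apart in 15% on the lower and 16.3% on the higher side. In the 3 brightest of the 10 level bins 70.6% to 79% had lower means, and 22.4% to 31% were lower at that p. Some partners, Camk4 among them, were dimmer. In the 5 dimmest bins 14.4% to 28.2% had lower means. At that p 0.377% to 6.32% of these bins were lower and 9.34% to 13.5% higher. No partner passed the adjusted threshold. The list of kinases that phosphorylate class IIa proteins also holds Stk11, whose product acts upstream of some of them. Of the 18 probe sets of this list, 14 had lower means (median log2 difference -0.69), and an unadjusted p under 0.05 was found for 5 on the lower side and 1 on the higher. Prkd3, a protein kinase D gene, had 12.70, 12.72 and 12.91 in Mef2c-deficient arrays, against 13.86, 13.83 and 14.20 in control arrays (difference -1.19, SE 0.26, limma adjusted p = 0.134). Camk2d, of the calcium and calmodulin-dependent kinases, differed by -1.05 (SE 0.25, limma adjusted p = 0.147). The higher one, named on the basis of its values, was Camk4, with 7.76 as its lowest level among Mef2c-deficient arrays and 7.24 as its highest among control arrays (difference 1.53, SE 0.42). Of 7 probe sets of 14-3-3 proteins, 6 had lower means, with a median of -0.44 and of -0.28 without Mef2c-deficient replicate 1. Ywhaq, of which the other probe set differed by only -0.44, had 12.99, 13.34 and 13.50 in Mef2c-deficient arrays and 14.53, 14.44 and 14.68 in control arrays (difference -1.27, SE 0.26, limma adjusted p = 0.133). Sfn, the gene of 14-3-3 sigma, was on the higher side (0.80, SE 0.25, limma adjusted p = 0.18).

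The 4 measured genes of the NCoR and SMRT complex, the structural subunits Tbl1x and Tbl1xr1 among them, all had lower means (median -0.77, or -0.51 without control replicate 3), 1 at an unadjusted p under 0.05. The same held for the 6 measured genes of MEF2 coactivators (median -0.79), 3 of them at an unadjusted p under 0.05. Of these, the acetyltransferase gene Kat2b differed by -1.25 (SE 0.30, limma adjusted p = 0.147) and the nuclear receptor coactivator gene Ncoa2 by -1.18 (SE 0.41, limma adjusted p = 0.196). In the cascades above ERK5 and p38, 13 of 16 genes had lower means (median -0.54), and 3, or 18.8%, were lower at an unadjusted p under 0.05, below the 22.4% to 31% in the 3 brightest level bins. They were Tab1, which activates p38 signalling (-1.01, SE 0.29), Map2k6, a p38 kinase (-0.76, SE 0.25), and Map2k5, the kinase of ERK5 (-0.85, SE 0.28), at limma adjusted p of 0.168, 0.186 and 0.19. Map2k5 had 11.05, 10.85 and 10.86 in Mef2c-deficient arrays and 11.68, 11.47 and 12.17 in control arrays, with no overlap, and was likewise named on the basis of its values.

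Calcineurin and NFAT genes, which link calcium to MEF2 and its targets, were divided. Of 11 genes 5 had lower and 6 higher means (median 0.35), and 1 on the lower and 2 on the higher side had an unadjusted p under 0.05. At that p 12.2% of all probe sets were lower and 8.55% higher. The median of the 11 was 0.05 without Mef2c-deficient replicate 2, 0.12 without Mef2c-deficient replicate 3 and 0.15 without control replicate 3. Nfat5 had 10.40, 10.72 and 9.89 in Mef2c-deficient arrays, against 8.71, 9.44 and 8.70 in control arrays (difference 1.38, SE 0.34, limma adjusted p = 0.149). Nfatc2 had 8.51, 9.53 and 8.89 in Mef2c-deficient arrays and 7.89, 7.61 and 7.43 in control arrays (difference 1.33, SE 0.34, limma adjusted p = 0.15). Over the pathway lists named here, 0 probe sets passed the adjusted threshold. The median of the ERK5 and p38 list shrank to -0.15 after quantile normalization and -0.08 after cyclic loess, that of the HDAC kinases to -0.30 and -0.21, that of the MEF2 coactivators to -0.45 and -0.38, that of the 14-3-3 proteins to -0.02 after cyclic loess and that of the NCoR and SMRT complex to -0.37 and -0.22.

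Of the 12 probe sets of pre-B and B lineage markers, 11 had lower means in Mef2c-deficient arrays (median log2 difference -0.96, or -0.62 without Mef2c-deficient replicate 3), 4 of them at an unadjusted p under 0.05. At that p 12.2% of all probe sets were lower, and 22.4% to 31% of those in the 3 brightest level bins. Cd79a was the 1 marker with a higher mean. The summed deposited values of these markers ranged from 1447000 to 2326000 in Mef2c-deficient and from 2207000 to 2747000 in control arrays. Markers of other cells also differed between arrays. Of 12 probe sets of plasmacytoid dendritic cell markers, 11 had higher means in Mef2c-deficient arrays (median log2 difference 1.46, or 0.81 without Mef2c-deficient replicate 3), and 5 were higher at an unadjusted p under 0.05. At that p 8.55% of all probe sets were higher. Klk1 was counted with both of its probe sets, which differed by 3.56 and -0.65. The brightest of the list, Irf8 and Grn, had mean log2 values of 15.99 and 15.76 in Mef2c-deficient and 15.05 and 15.13 in control arrays. The summed deposited values of this list ranged from 119700 to 1089000 in Mef2c-deficient and from 71490 to 182300 in control arrays. Siglech, which encodes a surface receptor of these cells and was named after its values were seen, had log2 values of 14.41, 16.55 and 18.54 in Mef2c-deficient arrays and 12.59, 12.51 and 15.53 in control arrays. Of 9 neutrophil probe sets, S100a9 and S100a8 the brightest, 8 had higher means (median 1.29, or -0.55 without Mef2c-deficient replicate 3), with summed values of 46030 to 1289000 in Mef2c-deficient and 34170 to 178600 in control arrays. Higher means were also found for 6 of 6 T cell, 6 of 6 erythroid, 8 of 10 monocyte and macrophage, 3 of 5 NK cell and 3 of 4 mature B cell probe sets, and for 2 of 5 plasma cell probe sets. Dim probe sets tended to be higher in any case, since only 14.4% to 28.2% of those in the 5 dimmest level bins had lower means. The mature B cell list had summed values of 119500, 311500 and 143400 in Mef2c-deficient arrays and of 64540 to 101400 in control arrays, and its highest array was the one with the highest Nr4a1. The plasmacytoid and neutrophil lists were highest in the array numbered 3 of each group, the arrays in which Nr4a1 and Klf4 were lowest. Hdac9 was lowest in Mef2c-deficient replicate 1, where the plasmacytoid list had the lowest level of its group. These arrays were named after their values were seen, and a link between the patterns was not tested. Without Mef2c-deficient replicate 3 the Hdac9 difference was -2.43 (limma adjusted p = 0.08), the Hdac5 difference -0.87 and the Mef2b difference 0.54. The bioB hybridisation control had log2 medians of 15.47 to 17.01 in Mef2c-deficient and 14.32 to 14.48 in control arrays. The part of these markers and of bioB in the differences above was not tested.

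**Figure D5:**
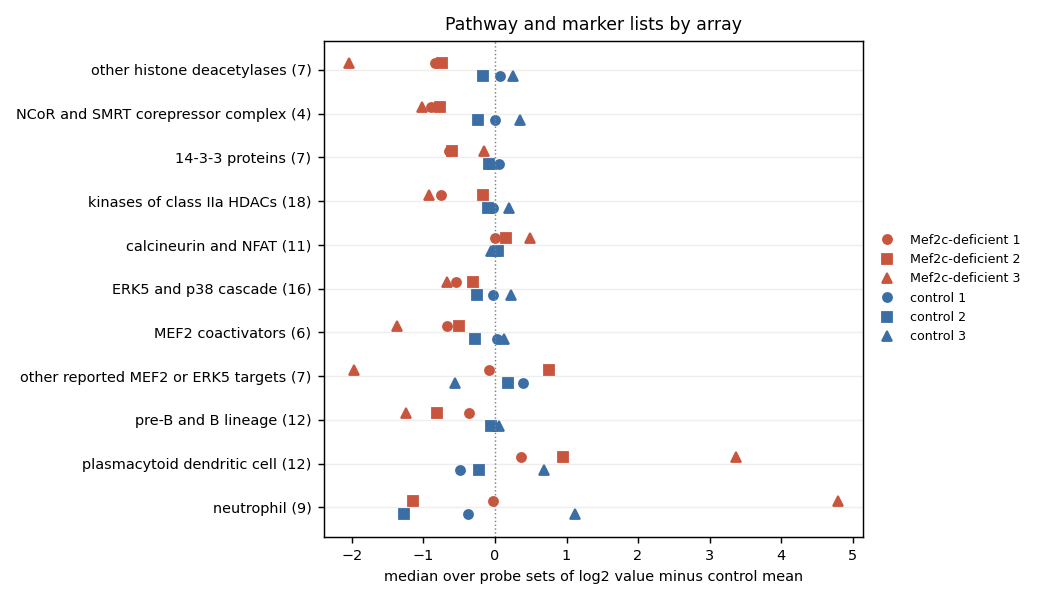
Median distance from the control mean on the log2 scale (horizontal axis) over the probe sets of each list, whose number stands after its name, in Mef2c-deficient (red, upper) and control arrays (blue, lower). Medians of other histone deacetylases, NCoR and SMRT, 14-3-3 proteins, kinases of class IIa HDACs, the ERK5 and p38 cascade, MEF2 coactivators and pre-B markers lie lower in every Mef2c-deficient array than in every control array, and plasmacytoid and neutrophil markers are highest in the arrays numbered 3.

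Genes whose pattern over the 6 arrays was most like that of Hdac9 were Rngtt, an mRNA capping enzyme gene, Pelo, a ribosome rescue gene, and Rtca, an RNA cyclase gene, each with Pearson's r of 0.99. In all, 501 of 17688 named probe sets of other genes had r over 0.9 with Hdac9. For Mef2b the closest were Prokr1, 4933403O08Rik and Gabrb1, with r of 0.997, 0.993 and 0.991, and 218 probe sets had r over 0.9. These values describe 6 arrays that share the difference between the groups.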

How the data were processed

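Per the study's methods, RNA of sorted cells was hybridised to Affymetrix mouse genome arrays, and the authors deposited intensity values from robust multiarray averaging (RMA: background adjustment, quantile normalization, summarisation), taken off the log scale. The methods name limma for differential expression and detection calls for leaving out probe sets. No source used here gives tool versions. Deposited values reached 2144602, beyond the range of a scanner for powers of 2 but not for powers of e. Since the base is not stated, log2 was kept and folds are given on both bases.

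The values were log2-transformed without offset. Of 23913 probe sets, 25 AFFX controls were left out, 17689 had 1 gene symbol in the platform annotation, 524 several and 5675 none. All 23888 entered limma 3.58.1 in R 4.3.3 (group as the only term, eBayes), two-sided, with Benjamini-Hochberg adjustment. A self-test on simulated data preceded it. Members and lists were chosen with earlier results of these data known. By rule the text names all members, the brightest probe sets of the marker lists given in values, the 2 genes per pathway list that had the smallest unadjusted p, and the 3 closest patterns of the members with the smallest p in each direction. Groups and replicate numbers follow the sample titles. Arrays of the same number deviated together from their group means (r = 0.25, 0.221 and 0.331 across probe sets, against -0.244 to 0.0789 for different numbers of different groups), so the numbers were taken as pairs from these values. Between arrays, r of log2 values was 0.937 to 0.968 among Mef2c-deficient and 0.976 to 0.991 among control arrays. The number of arrays limits the precision. Mef2c itself was not analysed here and gives no check of the labels.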

Additional observations from a re-analysis of the deposited data

How the results depend on the processing

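All 9 genes were refitted under 16 alternatives. Direction held in each for Mef2b, Mef2d, Hdac4, Hdac5, Hdac7, Hdac9 and Mapk14. Settings that change only the log base, the probe sets entered or the error term cannot turn a direction. For Hdac9 and Mef2b, whose groups did not overlap, leaving out 1 array cannot either. Mapk7 turned to 0.15 after quantile normalization and 0.20 after cyclic loess. Nr4a1 turned to 0.93 without Mef2c-deficient replicate 3, the highest of its values without 1 array, which began at -2.56. Hdac9 passed the adjusted threshold with array weights (-2.10), which gave control replicate 1 a weight of 5.32 and Mef2c-deficient replicate 3 one of 0.378. With the replicate number as a block Hdac9 had adjusted p = 0.118, and the block changed no call among the 9 genes. Over the whole table, probe sets with an adjusted p under 0.05 numbered 3, all lower, as deposited, 1 lower after quantile normalization, 1 with the replicate block, 0 with the methods' t-test, and 380 lower and 46 higher with array weights. Leaving out 1 array gave 0 to 5 lower and 0 higher. For an unadjusted p under 0.05, lower counts were 1929 after quantile normalization and 1866 after cyclic loess, in place of 2906, and 1847 to 3153 without 1 array. The higher count was 600 with the 40th percentile filter and 904 after median centring, in place of 2042, and 893 to 2619 without 1 array. With at least a 2-fold change and an unadjusted p of 0.05 or less, 1972 were lower and 832 higher. The lower count was 1263 after quantile normalization, 1231 after cyclic loess, 1285 with the methods' t-test and 784 on the base of e, and the higher count 297 with the filter, 422 after median centring, 474 with an offset of 16, 389 with the t-test and 251 on the base of e. Without 1 array these were 1399 to 2399 lower and 610 to 1396 higher. Of 336 list medians under the alternatives, 21 moved by more than the spread between arrays. The cause was not tested. Background correction and a slide block were not run, since only processed values were used.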
